A study of Mus musculus with 2 samples.

Results

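The miR-29 family is a set of microRNAs, short RNAs that are cut from hairpin precursors and lower the output of matching messenger RNAs. The 4 mouse genes Mir29a, Mir29b-1, Mir29b-2 and Mir29c were chosen by name, as the rows whose Ensembl identifiers carry those symbols in the GENCODE M21 annotation. They are 4 of the 2202 miRNA genes in the deposited tables, and the rule itself uses no measured value. The data are microRNA-seq counts of hippocampus tissue. The donors were males of the first-generation hybrid strain B6CASTF1/J, at 2 months of age, in 1 group of 2 biological replicates with no treatment named in the labels. The labels give separate biosamples under 1 donor entry, so the spread between replicates is that of these 2 samples and may be technical. No second age, sex, tissue or treatment was present, so neither a change with maturation nor any comparison between conditions could be made.

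A microRNA recognises its targets mainly through the seed, bases 2 to 8 from its 5′ end, and microRNAs with a shared seed form a family with overlapping targets. Members of the miR-29 family are known for rising to high levels in the brain after birth, for restraining pro-apoptotic BH3-only genes in maturing neurons, for targeting DNA methyltransferase transcripts, and for targeting collagen transcripts in many tissues. The genes lie as neighbouring pairs in separate clusters, Mir29a with Mir29b-1 and Mir29b-2 with Mir29c, and each cluster is known to be transcribed as 1 precursor.

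The mature sequences are shown because they fix which gene a read can be placed on. All 4 genes matched an entry in the RefSeq miRNA table (build GRCm38.p6), and capitals mark the seed. The 3p products, cut from the 3′ arm of the hairpin, are the canonical miR-29 microRNAs:
miR-29a-3p: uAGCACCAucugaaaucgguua
miR-29b-3p: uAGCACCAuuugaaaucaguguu
miR-29c-3p: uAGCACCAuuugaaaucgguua
The seed AGCACCA was shared by these 3 mature RNAs and by no other mature RNA in that table. Counted from the 5′ end, miR-29a-3p and miR-29c-3p differed at 1 of 22 positions (C10U). Over the same 22 positions miR-29c-3p and miR-29b-3p differed at 3 (G18A, U21G and A22U), so their first 17 bases were identical.

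The 5p products, cut from the opposite arm, differ between all 4 genes and carry other seeds:
miR-29a-5p: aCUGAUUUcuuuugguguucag
miR-29b-1-5p: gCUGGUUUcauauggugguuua
miR-29b-2-5p: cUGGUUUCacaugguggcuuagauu
miR-29c-5p: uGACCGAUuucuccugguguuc
The 5p arms of Mir29b-1 and Mir29b-2 were each found in 1 of the 2202 listed hairpins, whereas miR-29b-3p was found whole in 2, Mir29b-1 and Mir29b-2. Read from its 5′ end, miR-29a-3p became unique among the listed hairpins after 10 bases, miR-29c-3p only after 18, and miR-29b-3p at no length. Counts are deposited per gene and not per arm, so 5p and 3p products were not separated. A read of exactly miR-29b-3p fits both miR-29b hairpins, so the counts of Mir29b-1 and Mir29b-2 need not cover both arms in the way that of Mir29a can.

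Mir29a (ENSMUSG00000065610.1) and Mir29b-1 (ENSMUSG00000065604.2) lie on the minus strand of chromosome 6 in mm10, at positions 31062660 to 31062747 and 31063023 to 31063093, with 275 bases between them. Mir29a overlaps no other annotated gene, and Mir29b-1 overlaps only the edge of the noncoding gene Gm27019, by 2 bases. Mir29b-2 (ENSMUSG00000065412.3) and Mir29c (ENSMUSG00000065548.1) lie on the plus strand of chromosome 1, at 195037040 to 195037120 and 195037547 to 195037634, with 426 bases between them. Both lie within an exon of the noncoding transcript A330023F24Rik on their own strand and opposite an exonic UTR of Cd46, a complement regulator. No read of any of the 4 genes was counted on the opposite strand in either library, and the unstranded column held the same counts as the same-strand column. For Mir29b-1, the gene with the fewest reads, 0 opposite-strand reads allow up to 3 counts, or 3.33% and 2.83% of its same-strand count in replicates 1 and 2. Of the 401 detected genes, 27 lost counts in the unstranded column.

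Replicate 1 held 6441333 reads with 2322520 counted on miRNA genes, and replicate 2 held 10003856 reads with 3414105 counted. Counts were scaled to sum to 1000000 over all miRNA genes of a library (CPM), and detection required at least 2 CPM in each library. Reads that mapped to several places made up 42.6% and 46.0% of the libraries and are taken to be in no gene's count. They are listed apart from the genes, but the counting settings are not known, and each library's total here is the sum of all rows. On that reading, CPM describes reads that could be placed on 1 gene. In bulk tissue, fewer cells of a type and less RNA per cell cannot be told apart.

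All 4 genes were detected, and the family was abundant, with most of its placed reads on Mir29a. The family held 25515 counts in replicate 1 and 43225 in replicate 2. These were 1.1% of miRNA-gene counts in replicate 1 (Wilson 95% interval 1.09 to 1.11) and 1.27% in replicate 2 (1.25 to 1.28), a mean of 1.18% ± 0.118 (SD, n = 2). Intervals here and below cover counting error only. The family sum was 10986 and 12661 CPM. Its members spanned a mean 299-fold range of counts, in the order Mir29a, Mir29c, Mir29b-2 and Mir29b-1 in both libraries.

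Mir29a, the leading member, had 21735 counts in replicate 1 and 39624 in replicate 2, or 9358 and 11606 CPM. Its mean was 10482 ± 1589 CPM (SD, n = 2), which placed it 17th by mean among the 2202 genes, 21st in replicate 1 and 17th in replicate 2. It held 85.2% and 91.7% of the family's counts.

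Mir29c, whose mature 3p RNA differs from that of Mir29a by the single substitution above, had 3574 and 3284 counts, or 1539 and 962 CPM. Its mean of 1250 ± 408 CPM (SD, n = 2) ranked 82nd, and it held 14.01% and 7.60% of the family's counts. Mir29a exceeded Mir29c 6.08-fold in replicate 1 and 12.1-fold in replicate 2. The mean log2 ratio was 3.10 ± 0.70 (SD, n = 2), and the difference was larger than the spread between replicates, by the rule that both libraries lie on 1 side and the mean exceeds 2 SD. With 2 libraries the smallest two-sided sign-flip p is 0.5, so ratios are given without a p.

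Mir29b-1 and Mir29b-2, the 2 sources of miR-29b, were the least counted members. Mir29b-2 had 116 and 211 counts, or 49.9 and 61.8 CPM (mean 55.9 ± 8.38, SD, n = 2), and ranked 221st by mean. Mir29b-1 had 90 and 106 counts, or 38.8 and 31.05 CPM (mean 34.9 ± 5.45, SD, n = 2), and ranked 249th. Together they held 0.807% and 0.733% of the family's counts, at 88.7 and 92.9 CPM, so the sum over the 2 loci was close in the libraries.

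Mir29b-2 was counted above Mir29b-1 in both libraries, by 1.29-fold and 1.99-fold, but this order was within the spread between replicates (log2 ratio of Mir29b-1 over Mir29b-2 -0.68 ± 0.44, SD, n = 2). The steps above it were larger than that spread. Mir29c exceeded Mir29b-2 30.7-fold and 15.5-fold (log2 4.45 ± 0.69), and Mir29c exceeded Mir29b-1 39.5-fold and 30.8-fold (log2 5.13 ± 0.25). Levels per gene are counts scaled to the library and not to hairpin length, which was 71 to 88 nt.

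**Figure D1:**
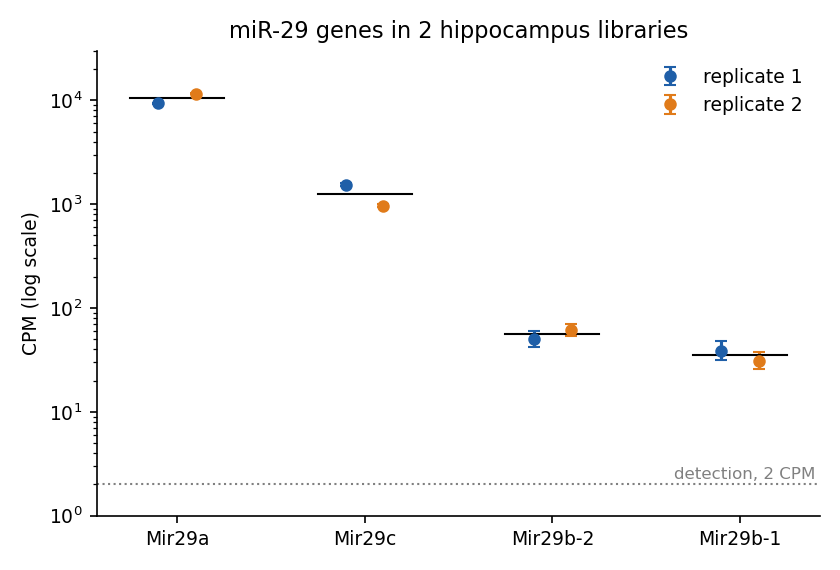
CPM on a log axis of each miR-29 gene in replicate 1 (blue) and replicate 2 (orange), with Wilson 95% intervals as error bars and the mean as a black line; the dotted line is the detection threshold of 2 CPM. Mir29a stands at 9358 and 11606 CPM, and the points of Mir29b-1 and Mir29b-2 lie between 31.05 and 61.8 CPM.

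**Figure D2:**
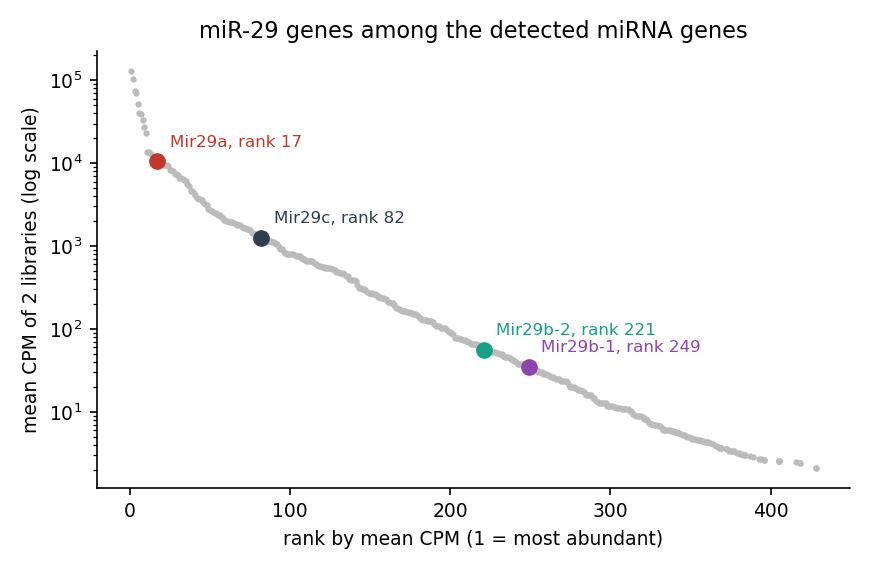
Mean CPM of the 2 libraries on a log axis against rank by mean CPM for the 401 detected miRNA genes (grey), with the 4 miR-29 genes in colour. Mir29a is at rank 17 and Mir29b-1 at rank 249.

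The clusters differed in total and within themselves. The chromosome 6 pair exceeded the chromosome 1 pair 5.91-fold in replicate 1 and 11.4-fold in replicate 2 (log2 3.04 ± 0.67, SD, n = 2), a difference larger than the spread between replicates. These sums are mostly Mir29a and Mir29c, which differed 6.08-fold and 12.1-fold. Reads of miR-29b-3p fit a hairpin in each cluster, so they need not be counted in either sum or on either miR-29b gene. Within chromosome 6, Mir29a exceeded its neighbour Mir29b-1 240.2-fold in replicate 1 and 372-fold in replicate 2 (log2 8.22 ± 0.45, SD, n = 2). The corresponding difference within chromosome 1, between Mir29c and Mir29b-2, was the 30.7-fold and 15.5-fold given above. The chromosome 6 neighbours thus differed more than the chromosome 1 neighbours in both libraries, which was not tested further.

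Such differences were set beside those of other neighbours. Adjacent miRNA genes on the same strand, within 1000 bases of each other, made 240 pairs. In 60 of these both genes were detected, with a median difference of 5.70-fold between neighbours. The other pairs were left out, and an abundant gene beside an undetected one can differ more than the pairs kept. Only 3 of the 60 pairs kept differed over 100-fold. Mir29a and Mir29b-1 came first of the 60, ahead of Mir323 with Mir758 at 189-fold and Mir23a with Mir27a at 111-fold, against a mean of 299-fold for the miR-29 pair. Mir29b-2 and Mir29c came 18th, at 21.8-fold. These ranks are a description of the libraries, and the named pairs other than miR-29 were singled out after their values were seen. The limit on miR-29b-3p reads given above holds for both miR-29 pairs here.

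**Figure D3:**
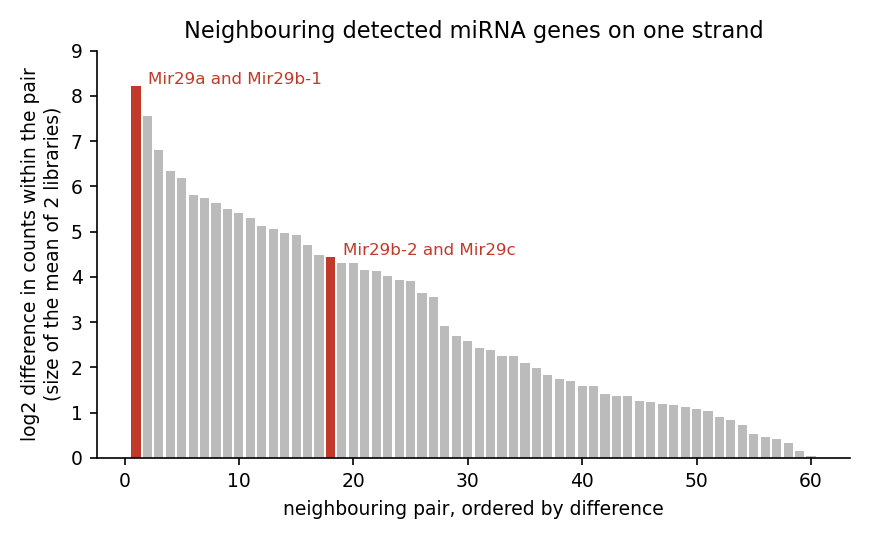
Size of the log2 difference in counts within each of 60 pairs of neighbouring detected miRNA genes on 1 strand (mean of 2 libraries), ordered from largest to smallest, with the miR-29 pairs in red. Mir29a with Mir29b-1 is the highest bar at 8.22, and Mir29b-2 with Mir29c is 18th at 4.45.

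The members also differ in how much sequence they share with other hairpins. Mir29a shared at most 14 nt in a row with any other listed hairpin, in this case Mir29c. The longest run that Mir29b-1 and Mir29b-2 shared with each other was 25 nt and contains the whole mature miR-29b-3p, with the seed in capitals:
Mir29b-1 and Mir29b-2: ucuAGCACCAuuugaaaucaguguu
The longest run of Mir29c was 22 nt, shared with Mir29b-1, and ends where the mature sequences first differ:
Mir29c and Mir29b-1: uugucuAGCACCAuuugaaauc
The order of levels was the reverse of the order of shared length, with Mir29a highest and the 2 miR-29b genes lowest. How many miR-29 reads are among the reads mapped to several places was not tested, because those reads carry no gene name in the tables.

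The same description was made for 4 families with near-identical members at several loci, miR-30, miR-26, miR-101 and miR-103/miR-107. In 4 of the 5 families, miR-29 included, the most abundant gene was the one with the shortest shared run. Mir26b, with 12 nt, held 99.6% of miR-26 counts in each library, while Mir26a-1 and Mir26a-2, with 25 nt, had means of 23.4 and 19.6 CPM. Mir107, with 24 nt, held 99.3% and 98.9% of miR-103/miR-107 counts. In the miR-30 family Mir30d led with 16 nt, but Mir30b, with 18 nt, was the lowest detected member at 125 ± 5.99 CPM, below Mir30c-1 and Mir30c-2 with 28 nt. The miR-101 family was the exception, since Mir101b led with 20 nt and Mir101c, with 19 nt, had no counts.

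Over all listed genes, 84 of 1087 that shared 20 nt or more were detected (7.73%), against 317 of 1115 others (28.4%). The listed genes include many predicted genes with Gm symbols that share long runs and have no counts. Their part in this contrast was not tested. Sharing of 20 nt or more was thus found in 49.4% of all listed genes and in 20.9% of the detected ones. Among the detected genes alone, which detection itself selects by level, the sharing ones had a median of 143 CPM and the others 78.2 CPM. Of the 25 most abundant genes 3 shared that much. Among genes of the RefSeq table with a mature product present in more than 1 listed hairpin, 46 of 114 were detected (40.4%). Their median was 116 CPM, and Mir29b-2 and Mir29b-1 were 27th and 31st of these 46. The miR-29b genes were thus below the middle of the detected multi-locus genes but not at the bottom.

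**Figure D4:**
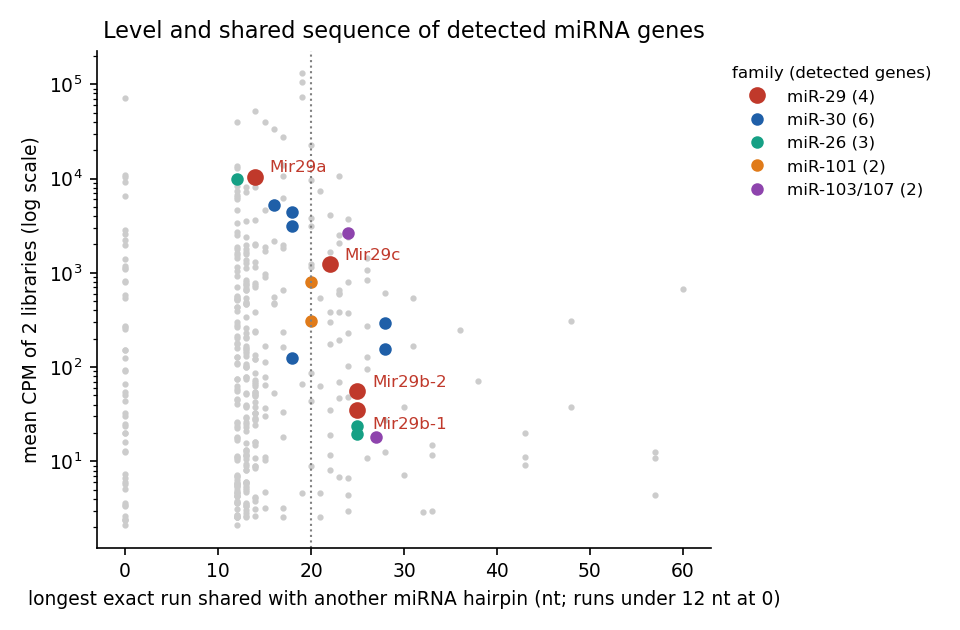
Mean CPM on a log axis of each detected miRNA gene (grey) against the longest exact run that its hairpin shares with another listed hairpin (nt, either strand, searched from 12 to 60 nt), with 5 families in colour and a dotted line at 20 nt. Mir29a sits at 14 nt and 10482 CPM, and the miR-29b genes sit at 25 nt and under 60 CPM.

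As a family, miR-29 was close to miR-30, a family of broadly expressed microRNAs. The miR-30 sum was 12198 and 14548 CPM over 7 genes, 6 of them detected, so miR-29 lay 1.11-fold and 1.15-fold below it (log2 ratio -0.18 ± 0.04, SD, n = 2). This small difference passed the rule of 2 SD, but its direction reversed with the unstranded column (log2 0.21), in which Mir30e, overlapped by Mir30f on the other strand, has 0 counts in place of 6554 and 12026. Per gene, the mean was 2956 CPM for miR-29 and 1910 CPM for miR-30. The first is mostly Mir29a, and the second includes Mir30f, which had no counts. The miR-29 sum exceeded the miR-101 sum 20.1-fold and 7.66-fold (log2 3.63 ± 0.98), which was larger than the spread. Against miR-26 the ratio was 2.19 in replicate 1 and 0.861 in replicate 2, so the order of these families was not the same in both libraries. Against miR-103/miR-107 it was 2.55 and 12.3, a ratio within 2 SD of equality. These 2 sums were almost wholly Mir26b (99.6% in each library) and Mir107 (99.3% and 98.9%). The sums compare reads placed on 1 gene, and the families may lack reads that fit several loci to different extents. That was not tested. The SD of the miR-29 sum over the libraries was 1184 CPM on a mean of 11823 CPM, beside 1662 on 13373 CPM for miR-30, 782 on 1099 CPM for miR-101, 6843 on 9860 CPM for miR-26 and 2311 on 2666 CPM for miR-103/miR-107.

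Between the replicates, Mir29a and Mir29c moved in opposite directions. Each gene's counts were set against the TMM-scaled library sizes in an exact binomial test, two-sided and adjusted by Benjamini-Hochberg over the 401 detected genes. It compares these 2 libraries beyond counting error, not conditions. Mir29a was 1.22-fold higher in replicate 2 (adjusted exact binomial p = 1.75e-122) and Mir29c was 1.63-fold higher in replicate 1 (adjusted exact binomial p = 4.14e-89). Mir29b-2 was at 1.21 times its replicate 1 level in replicate 2 (log2 0.28, adjusted exact binomial p = 0.161), and Mir29b-1 at 0.787 times (log2 -0.35, adjusted exact binomial p = 0.187). Their Wilson intervals overlapped, at 31.5 to 47.6 and 25.7 to 37.5 CPM for Mir29b-1 and at 41.6 to 59.9 and 54.01 to 70.7 CPM for Mir29b-2.

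Of the 4 members 2 passed this test, against 50.9% of all detected genes, so the members' count is near the background. Of all detected genes 28.2% were called higher and 22.7% lower in replicate 2, beside 1 member each way. The median difference over detected genes was 1.26-fold. The difference of Mir29a was smaller than that median, and 82 of the 401 genes, Mir29c included, differed at least as much as Mir29c. When the spread between the libraries over all detected genes was allowed for, with edgeR's exact test at the common dispersion (a biological coefficient of variation of 29.9%), none of the 4 members was called. Their unadjusted p-values by the edgeR exact test were 0.645 for Mir29a, 0.620 for Mir29b-1, 0.667 for Mir29b-2 and 0.258 for Mir29c, so none was under 0.05, and every adjusted p was 1. That test called 0.748% of detected genes. It sets 1 library against 1 with a dispersion estimated from the same libraries, and a member that it did not call is not shown to be stable.

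**Figure D5:**
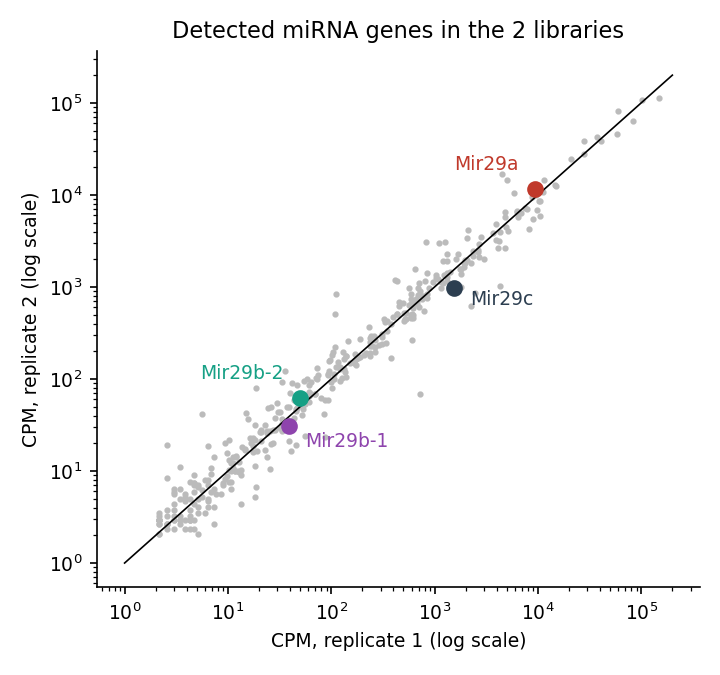
CPM of each detected miRNA gene (grey) in replicate 2 (vertical log axis) against replicate 1 (horizontal log axis), with the 4 miR-29 genes in colour and the line of equality in black. Mir29a, at 9358 and 11606 CPM in replicates 1 and 2, lies above the line, and Mir29c, at 1539 and 962 CPM, lies below it.

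Marker lists of cell types are given for the same libraries, beside the 28.2% of detected genes called higher and the 22.7% called lower in replicate 2. The oligodendrocyte list (Mir219a-1, Mir219a-2 and Mir338) was at 4367 and 2683 CPM, with 2 of 3 genes called lower in replicate 2, and the erythrocyte list (Mir451a, Mir144 and Mir486) was at 1922 and 1149 CPM, with 1 of 3 called lower and 1 higher. The neuron list was at 32939 and 47570 CPM, with 3 of 9 genes called higher and 3 lower, and the endothelial gene Mir126a was at 14889 and 12474 CPM and was called lower. The mural list was at 6456 and 6935 CPM, with 2 of 2 genes called higher, and the microglia and leukocyte list at 1260 and 1598 CPM, with 2 of 5 called higher and 1 lower. The choroid plexus and epithelium list was at 779 and 971 CPM, with 3 of 7 called higher and 1 lower, and the striated muscle list at 55.1 and 24.02 CPM, with 1 of 6 called lower. The oligodendrocyte, erythrocyte, endothelial and striated muscle sums were lower in replicate 2. The neuron, mural, microglia and leukocyte, and choroid plexus and epithelium sums were higher. Some of these differences rested largely on 1 gene. In the neuron list Mir128-1 was at 4518 and 16906 CPM in replicates 1 and 2. Mir128-2 and Mir137 were also higher in replicate 2, while Mir132, Mir138-1 and Mir138-2 were lower. In the erythrocyte list Mir451a was at 1807 and 1007 CPM, while Mir144 and Mir486 were higher in replicate 2. In the oligodendrocyte list Mir219a-2 was at 2447 and 865 CPM, while Mir338 was at 1911 and 1811 CPM and Mir219a-1 at 9.04 and 7.03 CPM. In the microglia and leukocyte list Mir150 was at 569 and 966 CPM. Mir142 and Mir223 were also higher in replicate 2, while Mir146 and Mir155 were lower. The part of these lists in the differences of Mir29a and Mir29c was not tested.

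The tissue label was checked on the same lists. Of the 9 neuron genes 7 were detected, beside 401 of all 2202 miRNA genes. Mir124a-2 and Mir124a-3, at or under 1.46 CPM, were not, and they share their mature sequence with Mir124a-1. Mir124a-1 was itself only just above the threshold of 2 CPM, at 2.58 and 3.22 CPM in replicates 1 and 2. The striated muscle counts all came from Mir206, with the other 5 genes of that list at 0.

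Lists of other microRNAs with known timing in the brain place the level of miR-29. The list of genes known for postnatal or adult brain expression held Mir128, Mir132, Mir212, Mir138, Mir219a, Mir338 and Mir139 genes, 10 in all, and all 10 were detected. It summed to 88635 and 120101 CPM, of which Mir139 gave 67.4% and 68.0%. The miR-29 sum was 8.07-fold and 9.49-fold below it, and 2.63-fold and 3.03-fold below it with Mir139 left out, a choice made after seeing the data. The progenitor list held the growth-associated miR-17-92, miR-106b-25 and miR-106a-363 genes and the stem-cell miR-302 and miR-290 genes. Of 23 listed genes 22 matched the annotation and 10 were detected, with sums of 2829 and 3032 CPM. Over all 2202 miRNA genes 401 were detected, so both lists were detected more often than miRNA genes at large. The miR-29 sum exceeded the progenitor sum 3.88-fold and 4.18-fold (log2 2.01 ± 0.07, SD, n = 2), more than the spread between replicates. These are levels at a single age, and sums over lists of different length. Reads that fit several loci may be missing from each sum to a different extent, which was not tested.

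The genes closest in level to each abundant member were found by the summed absolute difference in log2(CPM + 1) over the 2 libraries. For Mir29a they were Mir137 (0.174; 8697 and 12170 CPM), Mir328 (0.251) and Mir330 (0.254). For Mir29c they were Mir451a (0.298; 1807 and 1007 CPM), Mir181b-2 (0.436) and Mir28a (0.494). With 2 libraries this measure describes level only.

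The hairpins of the family were rich in A and U, with a GC content of 38.6% for Mir29a, 35.2% for Mir29b-1, 39.5% for Mir29b-2 and 44.3% for Mir29c. The median over all listed hairpins was 50.8%. Of all hairpins 28.7% were at or below the GC content of Mir29c, the highest of the 4, and of the detected ones 21.9%.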

How the data were processed

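The deposited values were whole-number read counts per miRNA gene, without normalization, with 3 columns for each library (unstranded, same strand, opposite strand). The labels name assembly mm10, and annotation M21 is named in the deposited description files. The aligner, counter and settings are not given in the sources used here. The same-strand column was used. The 4 rows naming no gene were left out of library sizes. Of all reads in replicates 1 and 2, 42.6% and 46.0% were multimapping, 16.2% and 15.1% unmapped, 5.16% and 4.70% outside features, and 0% ambiguous.

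Counts were scaled to a sum of 1000000 per library. Log2 ratios used 0.5 added to each count. TMM factors were 0.991 and 1.01 (edgeR 4.0.16, R 4.3.3), and the exact binomial test used scipy 1.17.1 with a threshold of 0.05. DESeq2 1.42.0 size factors were an alternative. Symbols and hairpins came from GENCODE M21, and only the 2202 listed hairpins were searched for shared runs. Named genes were the 4 members, the 3 genes nearest to Mir29a and to Mir29c, and the genes of the families and lists; others are named as chosen after seeing values. The members were chosen by family name, and both this family and the lists were picked with earlier results of these data known.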

Additional observations from a re-analysis of the deposited data

Results flagged for a closer look

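Reads that mapped to several places are taken to lie outside every gene's count and are a signal outside the main measurement. Their number was 2743569 in replicate 1 and 4604517 in replicate 2, where the limit for a count of 0 is 3 counts. They exceeded the counts placed on the miR-29 family 107.5-fold and 106.5-fold. The tables give no gene for them, so the share that belongs to miR-29b or to any other member was not tested.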

How the results depend on the processing

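Over the alternatives run, 95 values kept their direction and their side of the threshold or moved by less than the spread between replicates, 14 moved further, 2 were no longer past the threshold and 2 reversed. The 95 include values that could not have moved further. With 2 libraries, leaving 1 out always moves a mean level by less than the SD. Ratios among the miR-29 genes used the same counts in the unstranded column. The miR-29 sum of 11823 CPM became 20770 CPM when the 5 most abundant genes were left out of the total and 4141 CPM when all reads formed the total, as each setting changes only the denominator. The ratio of miR-29 over miR-30 (log2 -0.18) was 0.21 with the unstranded column, where Mir30e has no counts. The ratio over miR-26 (log2 0.46) ranged from -0.22 to 1.13 when either replicate was left out, without replicate 1 giving the reversed value. With edgeR's exact test at the common dispersion, 0 of the 4 members and 3 of all detected genes were called, in place of 2 and 204. The progenitor sum was 3164 CPM with the unstranded column in place of 2930 CPM. Its counts, 6571 and 10350, were the same in both columns, and the unstranded total over all miRNA genes was smaller, at 2152080 and 3160876 in place of 2322520 and 3414105. The postnatal list was 33620 CPM without Mir139 in place of 104368 CPM, an alternative added after seeing the data. No paired analysis was possible because there is 1 group. The miR-29b genes rest on 90 to 211 counts per library, which limits the precision of their levels and ratios. Why these counts are low was not tested.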
